A study of Mus musculus with 6 samples.

Results

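The interstitial collagen genes were taken as every gene on the array whose symbol has the form of a collagen chain (Col, a type number, a and a chain number), leaving out the basement membrane chains Col4a1 to Col4a6 and the multiplexins Col15a1 and Col18a1. This gave 36 genes out of 20239 tested, among them 11 fibrillar, 9 FACIT, 6 type VI, 3 network and 4 transmembrane collagens and 3 others (Col7a1, Col26a1 and Col28a1). The rule reads gene names and no measured value. RNA came from isolated pericytes of C57BL/6 mice, which are mural cells of small vessels. They were cultured for 5 days, with PDGF-BB at 100 ng/ml on 3 arrays and under the control condition on 3 others. PDGF-BB, a dimer of platelet-derived growth factor B chains, is the main ligand of the receptor PDGFR-β, through which endothelial cells recruit pericytes. The labels give no organ of origin, and they do not say whether the arrays of a group came from separate isolations, so p-values reflect only how far these 6 samples scatter, which can be technical.

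Collagens are secreted proteins in which α chains wind into a rope-like helix. The fibrillar types I, III and V build the tensile fibres of connective tissue, with type I the bulk protein, type III prominent in vessels and early repair tissue, and types V and XI setting fibril diameter. FACIT collagens sit on the fibril surface, type VI makes beaded filaments between fibrils and cells, types VIII and X form sheet-like networks, and the transmembrane collagens span the cell membrane. Perivascular cells are a known source of scar collagen in several organs. The question of the comparison is how sustained PDGF-BB alters pericytes, and here which collagen transcripts differ with it.

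Of the labelled cell type's markers, the receptor gene Pdgfrb was bright, with a mean log2 value of 12.85 in the PDGF-BB cultures and 12.98 in the control cultures. In the list of 14 pericyte markers Anpep, an aminopeptidase, rose (log2 change 0.87), and Acta2, smooth muscle actin, and Cd248, endosialin, fell by 1.07 and 0.33. The part of these shifts in the collagen results was not tested. A log2 value of 7.65 was used as the level under which a gene is not told from background. It is the 90th percentile of 18 measured lymphocyte, mast cell and erythroid markers, which are taken as absent. Of 14 pericyte markers 4 lay under it in both groups, namely Abcc9, Des, Vtn and Zic1. Rgs5 lay close to it (7.71 with PDGF-BB and 7.77 in control), as did Kcnj8 (7.63 with PDGF-BB and 7.85 in control). Endothelial markers lay under it in both groups for 10 of 12 genes, macrophage markers for 10 of 12, chondrocyte markers for 7 of 10, epithelial markers for 6 of 10, osteoblast markers for 3 of 7 and fibroblast markers for 4 of 13. The mean log2 level of the pericyte list was 9.15 to 9.19 on the PDGF-BB arrays and 9.19 to 9.27 on the control arrays. That of the fibroblast list was higher, at 10.6 on each PDGF-BB array and 10.4 to 10.6 on the control arrays. Its genes Pdgfra (12.82 with PDGF-BB and 12.90 in control) and Dcn (13.63 and 13.54) were about as bright as Pdgfrb or brighter. In that list Lum and Dpt rose (log2 changes 2.91 and 0.72) and Mfap5 fell by 2.52, and the part of fibroblast-marked cells in the collagen results was not tested. The arrays were of even brightness, with a median log2 value of 8.43 to 8.46.

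Promoters are shown first for the 3 chains of the classical type VI molecule, which share a molecule and had log2 changes of 0.41, 0.86 and 2.08, and for Col11a1, the fibrillar chain that fell. RefSeq promoter windows (GRCm38.p6) were found for 28 of the 36 genes and none was printed for Col1a1, Col2a1, Col5a2, Col9a3, Col12a1, Col14a1, Col22a1 or Col26a1. Each line gives the 250 bases before the annotated start, 5′ to 3′ on the gene's strand, and for Col6a2, which has 2 annotated starts, the outermost is used. The windows are chr10:76726045-76726294 on the minus strand (Col6a1), chr10:76623631-76623880 on the minus strand (Col6a2), chr1:90843972-90844221 on the minus strand (Col6a3) and chr3:114030290-114030539 on the plus strand (Col11a1). Capitals mark the strings searched on both strands, which were the CCAAT box (CCAAT), the GC box (GGGCGG), the TATA box (TATAAA), the AP-1 site (TGANTCA) and the SMAD-binding core (CAGAC).
Col6a1: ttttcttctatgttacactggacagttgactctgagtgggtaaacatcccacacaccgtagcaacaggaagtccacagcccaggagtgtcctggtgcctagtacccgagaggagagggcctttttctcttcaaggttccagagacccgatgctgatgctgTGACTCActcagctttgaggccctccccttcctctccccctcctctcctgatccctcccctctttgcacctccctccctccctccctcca
Col6a2: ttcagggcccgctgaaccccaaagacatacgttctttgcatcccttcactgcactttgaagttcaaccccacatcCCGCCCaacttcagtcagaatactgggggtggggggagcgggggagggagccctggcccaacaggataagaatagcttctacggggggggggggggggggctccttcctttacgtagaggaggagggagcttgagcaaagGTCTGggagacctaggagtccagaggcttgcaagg
Col6a3: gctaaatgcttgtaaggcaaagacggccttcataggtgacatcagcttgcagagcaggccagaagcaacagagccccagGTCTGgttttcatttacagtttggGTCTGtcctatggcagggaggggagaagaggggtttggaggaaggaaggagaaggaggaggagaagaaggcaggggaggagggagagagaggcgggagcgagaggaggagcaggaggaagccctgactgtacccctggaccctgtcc
Col11a1: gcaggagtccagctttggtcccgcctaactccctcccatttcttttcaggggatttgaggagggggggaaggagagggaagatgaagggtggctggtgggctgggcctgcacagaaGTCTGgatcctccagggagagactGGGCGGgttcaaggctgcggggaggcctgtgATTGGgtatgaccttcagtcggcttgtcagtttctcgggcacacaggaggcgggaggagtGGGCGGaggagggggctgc

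The 3 type VI windows had different strings. Col6a1 held an AP-1 string beginning 90 bases before the start, Col6a2 a GC box and a SMAD-binding core, and Col6a3 the SMAD-binding core at 2 places. The Col11a1 window held 2 GC boxes, the nearer 19 bases before the start, a CCAAT box on the opposite strand at 79 bases and a SMAD-binding core at 134 bases. Over the 28 collagen windows, 17 (60.7%) held a GC box, against 33.0% of 27025 windows of all genes, 1 per gene. These were not filtered for genes on the array or for protein-coding genes, so the 2 sets may differ in kind. The collagen windows were also richer in G and C (median 59%) than those of all genes (52%). A CCAAT box was found in 8 of the 28 (28.6%, against 34.5% of all windows), a TATA box in 5 (17.9%, against 12.98%), an AP-1 string in 1 (3.57%, against 6.85%) and the SMAD-binding core in 14 (50%, against 42.2%). Each string was counted by itself, and a GC box can begin inside a CCAAT box on the opposite strand. These matches describe letters and are not shown to be sites of binding.

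PDGF-BB cultures had higher levels of 4 interstitial collagens and lower levels of 2, while the other 30 did not pass the test. Those that rose were Col6a3, Col6a2, Col3a1 and Col23a1, and those that fell were Col11a1 and Col20a1. A gene was called at an adjusted p under 0.05 (limma, Benjamini-Hochberg over all 20239 genes). Log2 changes run as PDGF-BB less control, so that positive ones are higher with PDGF-BB, and intervals are 95% intervals of the same fit. The 6 calls make 16.7% of the collagens, against 21.5% of all genes called in either direction. By direction, 4 of 36 (11.1%) rose where 10.1% of all genes did, and 2 of 36 (5.56%) fell where 11.4% did. The median log2 change of the 36 was 0.04, and over all genes it was -0.02. Of the 36, 24 had a log2 change smaller than 0.15 in either direction, as did 11861 of all 20239 genes. In RNA of whole cultures, fewer cells of a type and less RNA per cell cannot be told apart.

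The 3 PDGF-BB arrays lay entirely on 1 side of the 3 control arrays in 9 of the 36 collagens (37.6% of all genes did so). These were the 6 called genes together with Col6a1, Col25a1 and Col28a1. Among the 9 collagens with a mean log2 value of 10 or more, 2 were called, where 35.1% of all genes of that brightness were. The count of collagens that passed was 3 without PDGF-BB array 2, and the count that rose was 2 without PDGF-BB array 2 or 3 or control array 1 or 3. The share of all genes called was not counted in the fits that leave out an array. With the replicate number as a block the counts were again 4 and 2, but Col6a1 took the place of Col3a1 (with the block 23.4% of all genes were called, 10.9% rose and 12.5% fell).

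**Figure D1:**
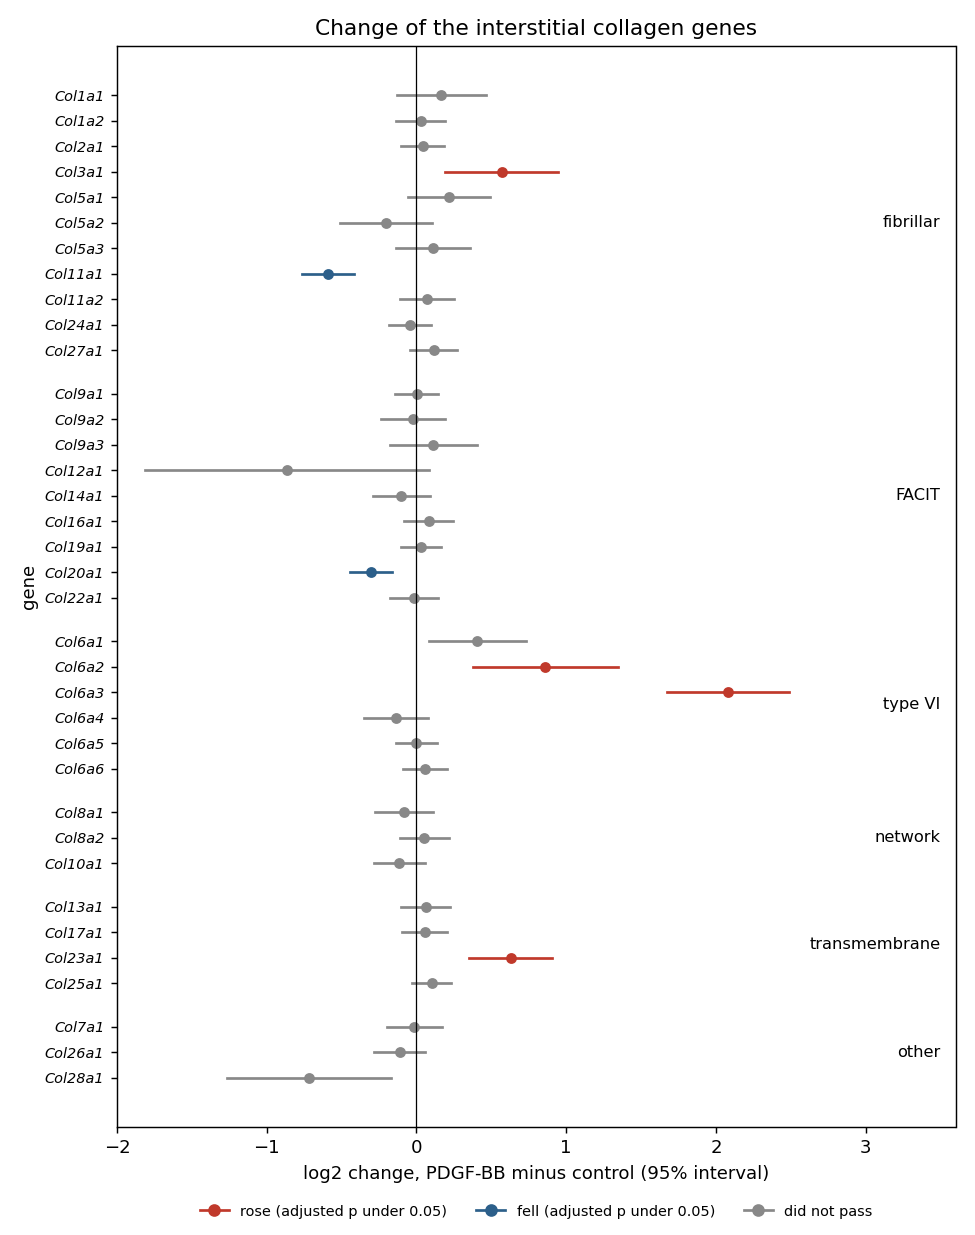
Log2 change (PDGF-BB minus control, x axis) of each of the 36 interstitial collagen genes (y axis), grouped by type, with points for the estimate and bars for its 95% interval. Red marks the 4 genes that rose, blue the 2 that fell and grey the 30 that did not pass, and Col6a3 at 2.08 stands farthest from 0.

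Type VI collagen had the largest change. The classical type VI molecule joins 1 chain each of α1(VI), α2(VI) and α3(VI), and the α3 chain carries the long amino-terminal part that is needed for assembly. Col6a3, which encodes it (Entrez gene 12835), measured 10.71, 11.37 and 10.77 on PDGF-BB arrays 1, 2 and 3, against 8.90, 8.95 and 8.76 on control arrays 1, 2 and 3. All PDGF-BB values lay more than 1 log2 unit above every control value. The change was 4.23-fold (log2 change 2.08, SE 0.17, interval 1.67 to 2.49, adjusted p = 9.5e-04, limma, n = 3 each). A called rise of 2 log2 units or more was seen in 54 genes of 20239 (0.267%). Col6a3 kept its call without any 1 of the arrays, with adjusted p no higher than 0.0045.

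Col6a2, the α2(VI) chain (Entrez gene 12834), measured 11.80, 12.42 and 12.51 with PDGF-BB, against 11.13, 11.60 and 11.43 in control. The groups did not overlap, although PDGF-BB array 1 lay near the highest control array. It rose 1.81-fold (log2 change 0.86, SE 0.20, adjusted p = 0.025, limma). Leaving out PDGF-BB array 2 or 3 ended the call, as did leaving out control array 1 or 3 (adjusted p = 0.062 to 0.079). Col6a1, the α1(VI) chain (Entrez gene 12833), measured 11.97, 12.33 and 12.41 with PDGF-BB, against 11.62, 11.94 and 11.93 in control. Its log2 change of 0.41 (interval 0.08 to 0.73, adjusted p = 0.082, limma) did not pass, though every PDGF-BB value exceeded every control value. It was called without PDGF-BB array 1 (adjusted p = 0.034, limma) and when same-numbered arrays were blocked (adjusted p = 0.0089, limma). Its differences between same-numbered arrays were 0.35, 0.38 and 0.48. Those of Col6a2 were 0.67, 0.82 and 1.08, and those of Col6a3 were 1.81, 2.42 and 2.01.

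The other 3 type VI genes, Col6a4, Col6a5 and Col6a6, encode α3-like chains with more restricted tissue distribution. None of them passed, and their log2 changes lay between -0.14 and 0.06. Col6a5 lay under the background level in both groups (7.01 with PDGF-BB and 7.02 in control), as did the PDGF-BB mean of Col6a4 (7.58, against 7.71 in control). These 3 genes stand in a row on chromosome 9 with no other protein-coding gene among them, and Col6a1 and Col6a2 are neighbours on chromosome 10, while Col6a3 lies apart on chromosome 1.

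**Figure D2:**
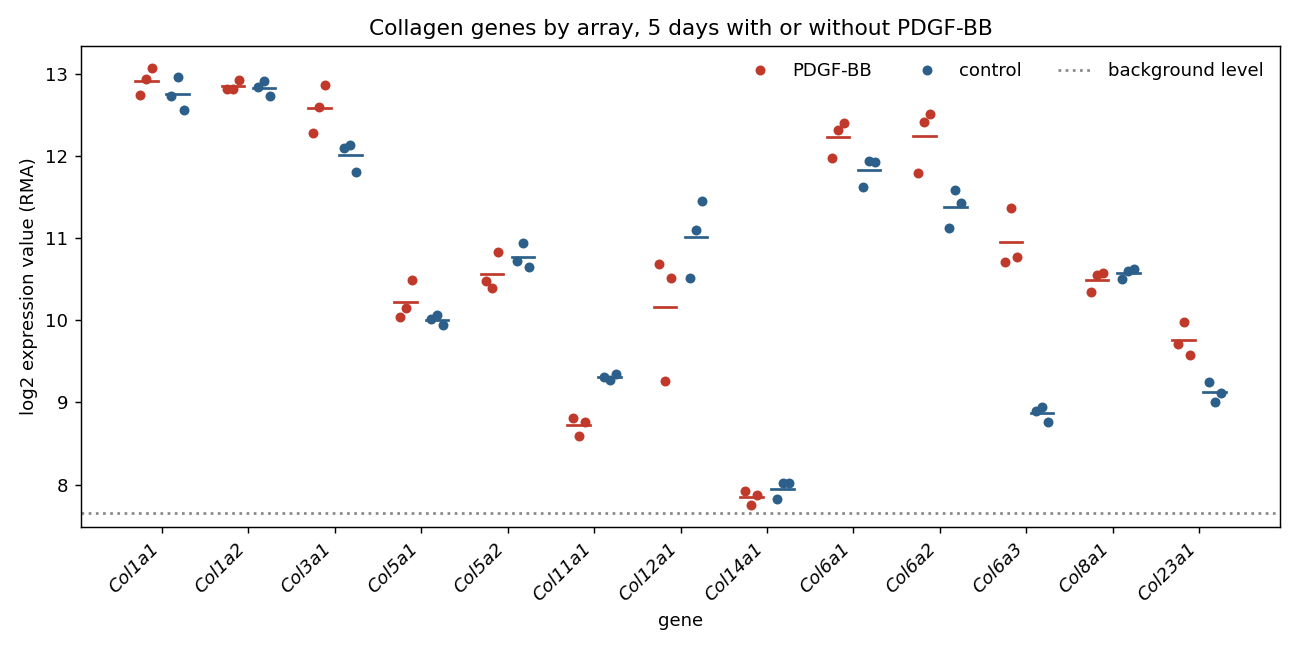
Log2 expression value (RMA, y axis) on each array for 13 collagen genes (x axis), with PDGF-BB arrays in red left of control arrays in blue, short lines for group means (n = 3 each) and a dotted line at the background level of 7.65. Col6a3, Col6a2, Col6a1, Col3a1, Col23a1 and Col11a1 show groups that do not overlap, whereas the arrays of Col1a1, Col1a2 and Col12a1 overlap.

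Among fibrillar collagens 1 of 11 rose and 1 fell (18.2% called, against 21.5% of all genes), and neither type I chain passed. Col1a1 (Entrez gene 12842), the α1(I) chain, measured 12.74, 12.94 and 13.08 with PDGF-BB, against 12.73, 12.97 and 12.56 in control (log2 change 0.17, interval -0.13 to 0.46, adjusted p = 0.44, limma). Col1a2 (Entrez gene 12843), its partner α2(I), measured 12.82, 12.82 and 12.93, against 12.84, 12.91 and 12.74 in control, so its log2 change was 0.03 (interval -0.13 to 0.19, adjusted p = 0.83, limma). Groups overlapped for both. The upper bounds of these intervals correspond to less than 1 log2 unit, so a change of type I transcripts as large as that of Col6a3 lies outside them.

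Col3a1 (Entrez gene 12825), the sole chain of type III collagen, measured 12.28, 12.60 and 12.87 with PDGF-BB, against 12.10, 12.14 and 11.80 in control. The groups did not overlap, and the differences between same-numbered arrays were unequal, at 0.18, 0.46 and 1.06. The gene rose 1.48-fold (log2 change 0.57, SE 0.16, adjusted p = 0.044, limma). Blocking on the replicate number ended this call (adjusted p = 0.054, limma). Leaving out any array other than PDGF-BB array 1 ended it too (adjusted p = 0.069 to 0.13). Col5a2, the α2(V) chain and the immediate neighbour of Col3a1 on chromosome 1, measured 10.48, 10.40 and 10.84 with PDGF-BB, against 10.73, 10.94 and 10.65 in control (log2 change -0.20, interval -0.51 to 0.11, adjusted p = 0.35, limma). Its groups overlapped. Col5a1, the α1(V) chain that helps to start fibril assembly, measured 10.05, 10.15 and 10.49 with PDGF-BB, against 10.01, 10.07 and 9.95 in control, with overlapping groups and a log2 change of 0.22 (adjusted p = 0.25, limma).

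Col11a1 (Entrez gene 12814), the α1(XI) chain of the minor fibrillar type of cartilage and other tissues, measured 8.81, 8.59 and 8.76 with PDGF-BB, against 9.31, 9.28 and 9.35 in control. Every PDGF-BB array lay below every control array by a clear gap. The gene was 1.51-fold lower (log2 change -0.59, SE 0.07, interval -0.76 to -0.42, adjusted p = 0.0027, limma), and the call held without any 1 of the arrays (adjusted p up to 0.010). The remaining fibrillar chains were Col2a1, Col5a3, Col11a2, Col24a1 and Col27a1. Their log2 changes lay between -0.04 and 0.12 and none passed. Col2a1, the main cartilage collagen, read 9.10 with PDGF-BB and 9.06 in control, while the cartilage proteoglycan gene Acan read 6.68 with PDGF-BB and 6.74 in control. Of the 10 chondrocyte markers 1 was called (10%, against 21.5% of all genes). It was Sox9, the factor that drives Col2a1 and Col11a2 in cartilage (11.70 with PDGF-BB and 11.01 in control, adjusted p = 0.0081, limma).

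**Figure D3:**
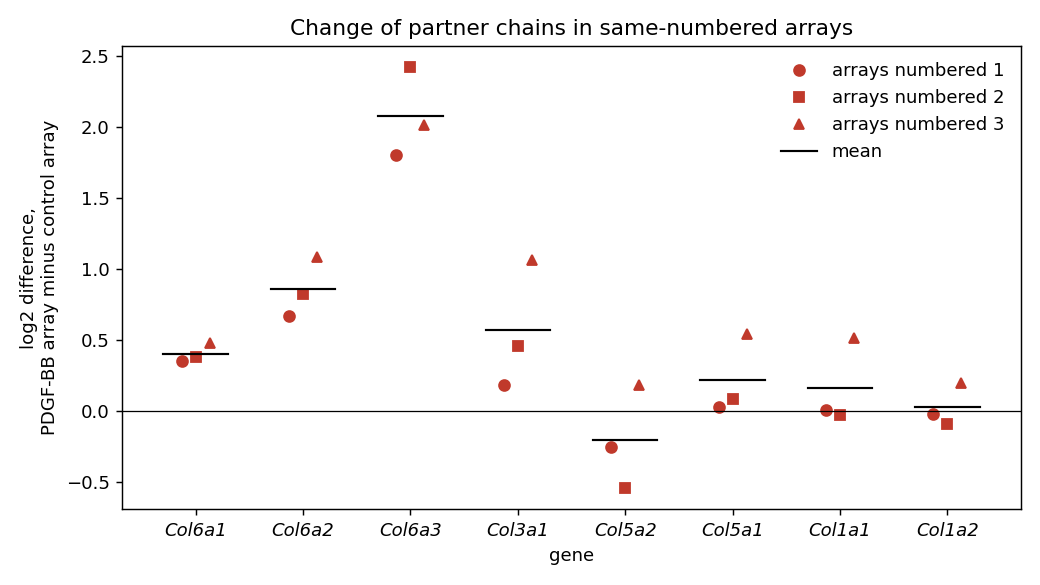
Log2 difference between the PDGF-BB and control array of the same number (y axis) for 8 collagen chains (x axis), with a marker shape for each array number and a black line for the mean of the 3. The type VI chains run from a mean of 0.41 (Col6a1) to 2.08 (Col6a3), and Col3a1 and Col5a2 lie on opposite sides of 0 on average.

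Chains of 1 molecule and neighbouring genes were then compared for unequal change, over 6 pairs. Each test asks whether the within-array log2 difference between the chains differed between the groups, with an exact two-sided permutation test whose smallest possible p with 3 arrays against 3 is 0.10. Col6a3 changed by 1.68 log2 units more than Col6a1, and Col6a2 by 0.45 more than Col6a1, and in both pairs the groups did not overlap (exact permutation p = 0.10 each, 0.15 adjusted over the 6 pairs). The change of Col3a1 exceeded that of Col5a2 by 0.77, and that of Col5a1 exceeded Col5a2 by 0.42, again without overlap and at the same p. For Col1a1 against Col1a2 the difference was 0.14 (exact permutation p = 0.20), and for Col8a1 against Col8a2 it was -0.14 (exact permutation p = 0.50), with overlapping groups. None of the 6 can pass the threshold at this number of arrays. Groups without overlap and the p of 0.10 are the same fact stated in 2 ways. How often other gene pairs lack overlap was not counted.

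FACIT collagens held 1 call in 9 (11.1%, against 21.5% of all genes). Col20a1 (Entrez gene 73368), a little-studied member, measured 8.19, 8.12 and 8.11 with PDGF-BB, against 8.42, 8.39 and 8.52 in control, without overlap. It was 1.23-fold lower (log2 change -0.30, SE 0.06, adjusted p = 0.013, limma), a small difference at a level less than 1 log2 unit above background. The adjusted p was 0.051 without PDGF-BB array 2 (limma). Among the genes taken as absent, Cd3e (8.22) and Slc4a1 (8.12) read near the Col20a1 mean of 8.14 with PDGF-BB. In control Col20a1 (8.44) read above both (8.27 and 8.10). Col12a1 (Entrez gene 12816), a stress-responsive bridge between fibrils, had the widest spread of all 36. It measured 10.69, 9.26 and 10.52 with PDGF-BB, against 10.51, 11.10 and 11.46 in control. PDGF-BB array 2 was far below the others, the groups overlapped, and the log2 change of -0.86 (interval -1.81 to 0.08) did not pass (adjusted p = 0.19, limma). Without PDGF-BB array 2 the log2 change of Col12a1 was -0.42.

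Col14a1, another fibril-surface collagen, which is used as a fibroblast marker, measured 7.93, 7.75 and 7.87 with PDGF-BB, against 7.82, 8.01 and 8.02 in control. That is only slightly above background in both groups, and the log2 change was -0.10 (adjusted p = 0.46, limma). The 3 chains of type IX, the cartilage FACIT, had log2 changes of 0.00 (Col9a1), -0.02 (Col9a2) and 0.11 (Col9a3). Col16a1, Col19a1 and Col22a1 changed by 0.08, 0.03 and -0.02, and Col19a1 lay under background in both groups. None of these passed.

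Of the 4 transmembrane collagens 1 rose (25%, where 10.1% of all genes did). Col23a1 (Entrez gene 237759) encodes a cell-surface collagen whose ectodomain can be shed. It measured 9.71, 9.99 and 9.57 with PDGF-BB, against 9.25, 9.01 and 9.12 in control, so that the lowest PDGF-BB array lay above the highest control array. The increase was 1.55-fold (log2 change 0.63, SE 0.12, interval 0.35 to 0.91, adjusted p = 0.010, limma) and was called without any 1 of the arrays (adjusted p up to 0.037). Col13a1, Col17a1, the hemidesmosome collagen of epithelia, and Col25a1 had log2 changes of 0.06, 0.05 and 0.10 and did not pass. The arrays of Col25a1 did not overlap, but its difference was small (8.24 with PDGF-BB and 8.14 in control, adjusted p = 0.26, limma).

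No network collagen passed. Col8a1 (Entrez gene 12837), the α1(VIII) chain found in vessel walls, measured 10.34, 10.56 and 10.58 with PDGF-BB, against 10.50, 10.60 and 10.62 in control, and its log2 change was -0.08 (interval -0.28 to 0.11, adjusted p = 0.56, limma). Col8a2 changed by 0.05, and Col10a1, the collagen of hypertrophic cartilage, lay under background in both groups. In the rest, Col7a1, the anchoring fibril collagen of skin, and Col26a1 had log2 changes of -0.01 and -0.11. Col28a1 (Entrez gene 213945), a collagen with von Willebrand factor A domains best known from peripheral nerve, measured 7.76, 7.75 and 7.63 with PDGF-BB, against 8.19, 8.09 and 9.03 in control. Control array 3 was far above the other control arrays, and the log2 change of -0.72 did not pass (adjusted p = 0.070, limma). Without control array 3 it was -0.42, with an adjusted p of 0.016. The PDGF-BB mean of Col28a1 (7.72) lay only just above the background level of 7.65. The basement membrane collagens left out above had 2 of 8 genes higher and 0 lower by the same limma test (25% called, against 21.5% of all genes), with 3 at an unadjusted p under 0.05. The largest log2 change among them was 2.02, near the 2.08 of Col6a3.

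Collagen chains are hydroxylated and folded in the endoplasmic reticulum, trimmed outside the cell, cross-linked, bound by receptors and degraded, and genes of these steps changed in both directions. Of 52 measured, 9 rose and 7 fell (30.8% called, against 21.5% of all genes). A mean log2 value of 10 or more was seen for 32 of them, of which 10 were called (31.2%), against 35.1% of all genes that bright. The total of 16 was 9 without PDGF-BB array 1 and 10 without control array 3. Blocking same-numbered arrays gave 18, as Adamts14, Loxl4 and Mmp3 gained a call (adjusted p = 0.0081, 0.019 and 0.028, limma) and P3h1 lost its own (adjusted p = 0.066, limma). In the folding and modification list 5 of 17 rose and 1 fell (35.3% called, median log2 change 0.07). P4ha3, an α subunit of prolyl 4-hydroxylase, averaged 9.76 ± 0.32 with PDGF-BB and 12.44 ± 0.15 in control (SD, n = 3 each), and fell by 2.68 on the log2 scale (adjusted p = 4.7e-04, limma). Plod1, a lysyl hydroxylase that modifies helical lysines, rose 1.77-fold (adjusted p = 0.0084, limma). Tmem38b, the endoplasmic reticulum cation channel TRIC-B, whose loss in humans causes brittle bone disease, rose 1.33-fold (adjusted p = 0.0071, limma). P4ha1 and P4ha2, the other α subunits, had log2 changes of 0.02 and 0.14 and did not pass.

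In the list of export, propeptide removal and cross-linking 1 of 14 rose and 3 fell (28.6% called, against 21.5% of all genes, median log2 change 0.02). With the block 3 rose and 3 fell, where 23.4% of all genes were called. Lox, the lysyl oxidase that starts collagen cross-links, was 2.34-fold lower (12.32, 11.79 and 12.20 with PDGF-BB, against 13.24, 13.29 and 13.45 in control, adjusted p = 0.0022, limma). The procollagen C-proteinases of the tolloid family moved apart, since Tll1 was at least 2.1-fold lower and Tll2 at least 2.21-fold higher (adjusted p = 0.0027 and 0.0083, limma). For each the lower group's mean lay under background (6.99 with PDGF-BB for Tll1, and 7.54 in control for Tll2), so these folds are lower bounds, taken against the background level. Bmp1, the third of that family on the array, had a log2 change of -0.26 (adjusted p = 0.045, limma), a call held in only 1 of the 6 fits that leave out an array.

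Of 9 collagen receptor genes 1 rose and 3 fell (44.4% called, against 21.5% of all genes, median log2 change -0.03). Ddr1, a receptor tyrosine kinase that binds collagen, was 2.10-fold lower (10.34, 9.90 and 10.35 with PDGF-BB, against 11.14, 11.42 and 11.24 in control, adjusted p = 0.0028, limma), while its relative Ddr2 had a log2 change of -0.03. The integrin α subunits that pair with β1 to bind collagen went different ways. Itga1 and Itga11 had log2 changes of -2.58 and -1.15 (adjusted p = 0.0022 and 0.032, limma), Itga2 one of 0.64 (adjusted p = 0.028, limma), and Itga10 one of 0.22 that did not pass. The Itga2 and Itga11 calls each held in 2 of the 6 fits that leave out an array. Itga11 was named after its value was seen.

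In the degradation list 2 of 12 rose and 0 fell by limma, with 5 at an unadjusted p under 0.05. The share called was 16.7%, against 21.5% of all genes, and the median log2 change was 0.13. With the block 3 rose, where 10.9% of all genes did. Ctsk, cathepsin K, which cleaves inside the collagen helix, rose 1.91-fold (11.46, 11.61 and 11.73 with PDGF-BB, against 10.46, 10.53 and 11.01 in control, adjusted p = 0.0063, limma). Ctsl, cathepsin L, rose 1.21-fold (adjusted p = 0.048, limma), and its call held in 1 of the 6 fits that leave out an array. The other 10 did not pass, with log2 changes between -0.45 (Fap, fibroblast activation protein) and 0.62 (Mmp3, stromelysin). Among them were the gelatinase genes Mmp2 and Mmp9 (0.19 and 0.26) and the collagenase gene Mmp14 (0.08), while the collagenase genes Mmp8 and Mmp13 lay under background in both groups.

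**Figure D4:**
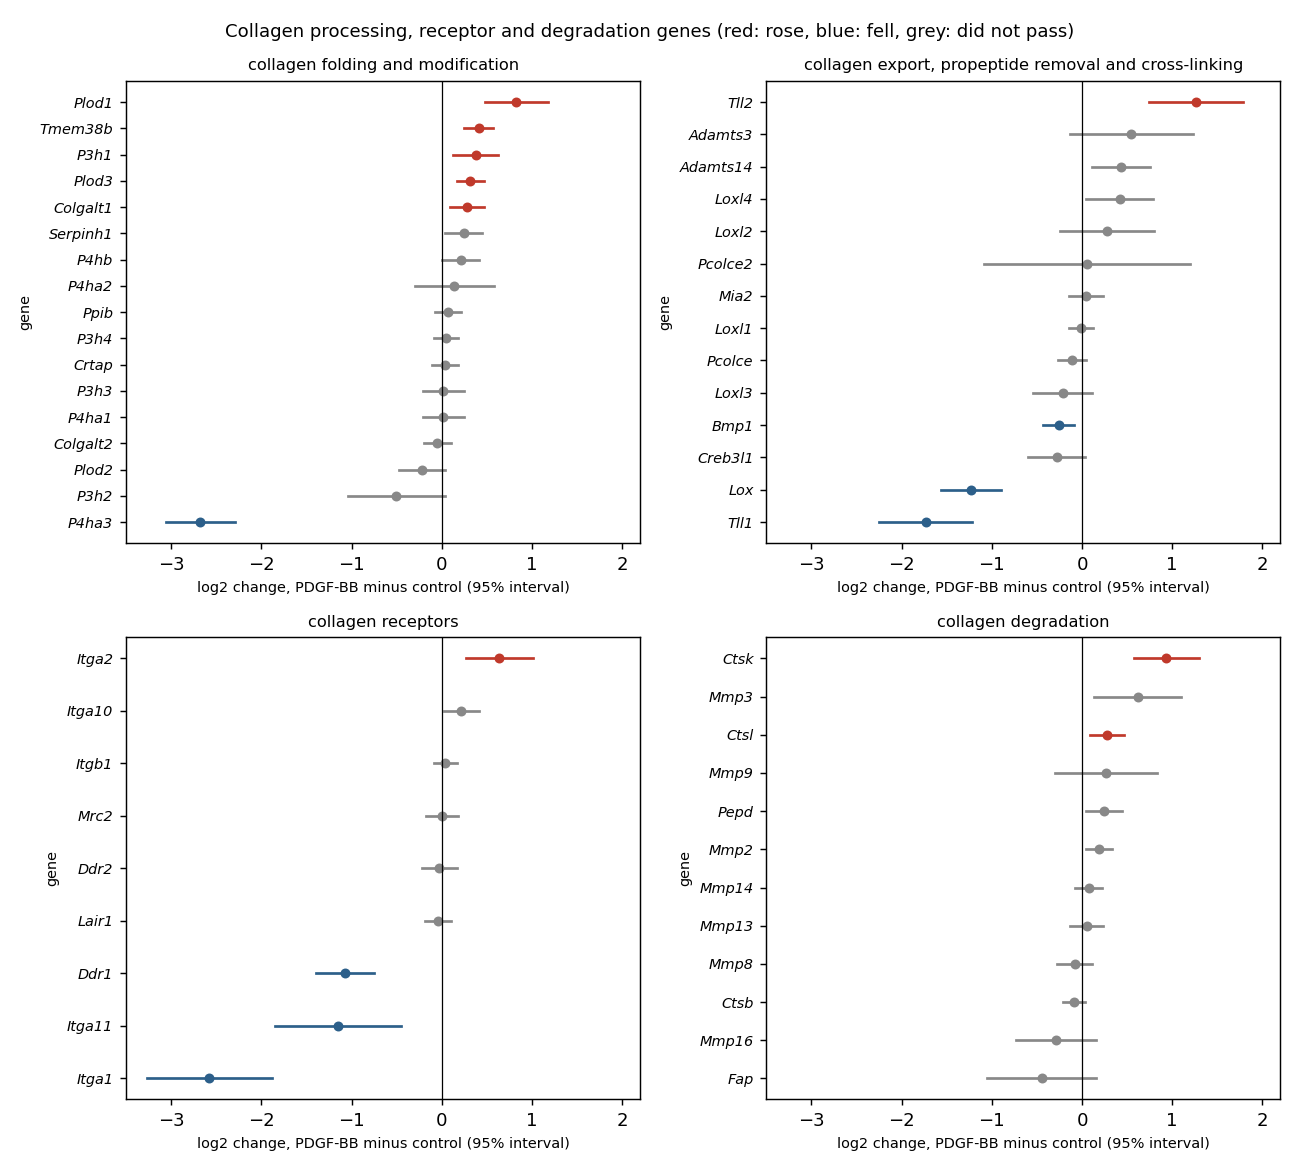
Log2 change (PDGF-BB minus control, x axis) with its 95% interval for the measured genes (y axis) of 4 lists on collagen folding, maturation, binding and degradation. Red marks genes that rose, blue genes that fell and grey those that did not pass, with P4ha3 at -2.68 and Itga1 at -2.58 the largest.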

How the data were processed

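Expression was measured on 1-colour arrays of total RNA. The authors deposited log2 values for 21225 probe sets on 6 arrays. The submitters' processing notes name RMA. Its software, probe set definition and filters were not given in the sources used here. RMA equalises arrays, so a change is measured against most other genes. The 20239 probe sets with exactly 1 gene symbol in GEO's platform annotation were fitted together, and the 986 not listed there were left out. Groups came from sample titles. The model was limma 3.58.1 (R 4.3.3; lmFit, eBayes) fitted on group alone, dim genes included, two-sided, with Benjamini-Hochberg adjustment over all genes; it was tested on simulated data. Exact permutation tests used scipy 1.17.1. No detection calls were used, and 3 arrays per group limit the precision.

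The collagen genes, the other lists and the tests were chosen with earlier results of these data known. Of 56 pathway genes listed 52 were measured. Values on every array are given for called collagens with a log2 change of 0.58 or more in size, and in every case for Col1a1, Col1a2, Col3a1, Col5a1, Col5a2, Col6a1, Col6a2, Col6a3, Col8a1, Col12a1 and Col14a1; those of Col20a1 and Col28a1 were added after their values were seen. Of each pathway list the 3 called genes with the smallest p are named, and others named there were chosen after their values were seen.

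Deviations from group means correlated across genes at 0.25, 0.32 and 0.25 for same-numbered arrays of the groups (numbers 1, 2 and 3), and at -0.28 to 0.01 otherwise, which meets the bar set for pairing. The fit reported has no block, and neither it nor the permutation tests use this pairing. For collagens and for processing, receptor and degradation genes the blocked value is given where it changes a call. Among markers, the block took the pericyte list from 1 that rose and 2 that fell to 2 and 3. It took the fibroblast list from 2 and 1 to 3 and 2, where 23.4% of all genes were called, against 21.5% without it. The alternatives tried were quantile normalization once more, median centring of each array, a filter that drops genes with mean signal below the 50th percentile, the replicate block, eBayes with an intensity trend, and leaving out each array.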

Additional observations from a re-analysis of the deposited data

How the results depend on the processing

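Counts of called collagens were 5 to 6 under the repeated quantile normalization, median centring, the filter on dim genes, the replicate block and the intensity trend, and 3 to 7 when 1 array was left out (2 to 5 rose and 1 to 3 fell). The filter on dim genes kept 21 of the 36 collagens. It left 1 that fell, because Col20a1 was no longer tested, and moved the median log2 change to 0.081. With the replicate block Col3a1 was no longer called and Col6a1 was (adjusted p = 0.054 and 0.0089, limma), and no other collagen call changed with it. The processing, receptor and degradation genes called numbered 9 to 19 with 1 array left out, of which 4 to 12 rose and 5 to 7 fell. Neither range is set against the share of all genes called with 1 array left out, which was not counted. The differences between partner chains kept their sign without any 1 array.

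No called collagen changed sign. Changes near 0 did so in 7 uncalled genes: Col22a1 (0.00012) and Col6a5 (0.023) under quantile normalization, Col6a5 (0.012) and Col7a1 (0.00035) under median centring, and with 1 array left out Col1a2 (-0.0171 to 0.0717), Col9a1 (-0.0288 to 0.0314), Col9a2 (-0.0833 to 0.0461), Col9a3 (-0.0166 to 0.183), Col22a1 (-0.0503 to 0.0267), Col6a5 (-0.0388 to 0.0241) and Col7a1 (-0.0713 to 0.0453). With 3 arrays a group and no detection calls, changes of dim probe sets may go unseen.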
